A study of Mus musculus with 3 samples.

Results

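Stroma8 is a small cluster of stromal cells that was found in each of 3 mouse melanomas. Its members were all cells that carry the cluster name Stroma8 in the table of cell assignments deposited with the study, 62 of 12670 cells. They were 23 cells of a tumor labelled Untreated, 18 cells of a tumor labelled Vemu Regressed and 21 cells of a tumor labelled Vemu Progressed, called the untreated, regressed and progressed tumor here. All 3 were melanomas of a genetically engineered mouse model (GEMM) on a C57BL/6 background, and messenger RNA was measured in single cells. Per the study's methods, the model carries Braf LSL.V600E and Tyr.CreER among its alleles, with or without a Rosa26 LSL.tdTomato reporter, and tumors were started by 4-OH tamoxifen on flank skin. The Tyr promoter drives the Cre in melanocytes. Vemurafenib, an inhibitor of mutant Braf, was given by oral gavage. The labels of the 3 tumors give neither a dose, a time, an age nor the reporter status. The counts do hold the transgene features tdTomato and tWPRE in each tumor. Together they had 565 UMIs in the other stromal cells of the untreated, 233 of the regressed and 745 of the progressed tumor. Each condition was 1 tumor, so no difference between conditions could be set against a spread between animals. Intervals are 95% and cover counting error only. Where 3 values are given for the tumors, they stand in the order untreated, regressed, progressed.

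Fibroblasts of skin and other tissues make the collagens, proteoglycans and elastic fibres that hold a tissue together, and they also send signals to immune cells and vessels. Fibroblasts differ with their place. Pi16 and Dpp4 are known as markers of fibroblasts in the fascia and in the adventitia, the outer coat of vessels, while pericytes and smooth muscle cells of the vessel wall carry Rgs5, Cspg4, Acta2 and Myh11 and endothelial cells carry Pecam1 and Cdh5. Whether the small cluster belongs with fibroblasts or with cells of the vessel wall is the question that its comparison with the other 9 Stroma clusters and with Bloodvessel addresses.

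Stroma8 stood out by being shared evenly among the tumors. Its share of a tumor's cells was 0.562% (0.356 to 0.842), 0.483% (0.287 to 0.762) and 0.433% (0.268 to 0.661), with exact Clopper-Pearson intervals that overlapped. Its largest share from any tumor was 37.1%, from the untreated one. In the other 9 Stroma clusters, the largest share from 1 tumor ran from 54.55% in Stroma3 to 99.79% in Stroma1. Of the cells of all 10 Stroma clusters, Stroma8 made up 0.875%, 0.939% and 0.614%.

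**Figure D1:**
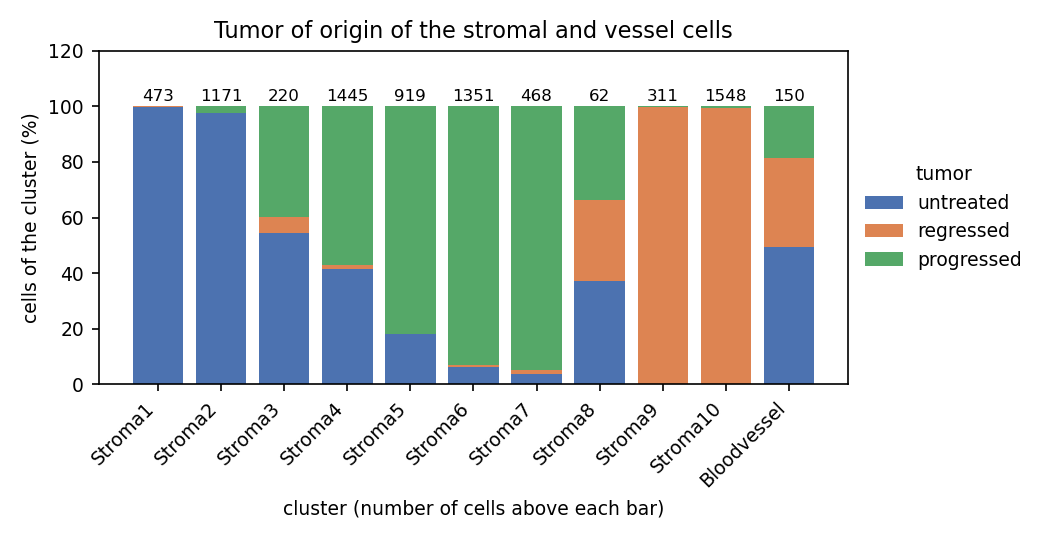
Share of each Stroma cluster and of Bloodvessel that came from the untreated, regressed and progressed tumor, in percent of the cluster's cells, with the number of cells above each bar. Stroma8, with 62 cells, drew 37.1% of its cells from the untreated tumor, 29.03% from the regressed and 33.87% from the progressed one.

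Depth differed between the tumors. A count is a UMI, a unique molecular identifier that tags 1 captured RNA molecule, and levels are given as CPM, a gene's UMIs scaled to a common total over the pooled cells. Stroma8 cells held medians of 4911, 4258.5 and 8563 UMIs, and 383720 UMIs in all. Cells of the other 9 Stroma clusters held medians of 4651, 3140.5 and 4367 UMIs, so the high progressed median was not shared by them. The other 9 Stroma clusters (7906 cells) held 37708765 UMIs and Bloodvessel (150 cells) held 1150480. The regressed cells of Stroma8 held 0 UMIs of Xist, which coats the inactive X chromosome, against 215 and 262 UMIs in the untreated and progressed cells. Haemoglobin took 0.1548% of UMIs in the regressed cells, 0.004104% in the untreated and 0 in the progressed ones, with 0.1582% in the other Stroma cells of the regressed tumor. Animal, sex, library and treatment cannot be told apart between the tumors.

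By the markers, Stroma8 was fibroblast-like, and it lacked the defining genes of endothelium. All 62 cells held UMIs of Col1a1, a chain of type I collagen, and of Sparc, a collagen-binding matrix protein. Col1a1 had a median of 24.5 UMIs per cell (2 to 226) and Sparc a median of 23 (2 to 150). Each cell held 6 to 12 of 12 fibroblast genes, with a median of 11. The 12 genes summed to 51550 CPM in Stroma8, 54100 CPM in the other 9 Stroma clusters and 5938 CPM in Bloodvessel, a log2 ratio of -0.07 (-0.09 to -0.05) to the other Stroma and of 3.12 (3.08 to 3.16) to Bloodvessel. The small difference from the other Stroma turned to 0.041 when every cell was weighted equally and to 0.011 without the progressed tumor. The sum therefore placed Stroma8 among the fibroblast-rich clusters without separating it from them.

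Within the fibroblast list the members went different ways. Pi16, Dpt (dermatopontin, a small matrix protein) and Fbln1 (fibulin 1) stood at least 4-fold above the other Stroma. Dpt reached 1978, 1534 and 2108 CPM in the 3 tumors against 160.8 CPM in the other Stroma, a log2 ratio of 3.61 (3.50 to 3.72). Fbln1 reached 331 against 44.3 CPM. Lum, which encodes the proteoglycan lumican, was lower at 1147 against 3219 CPM, and Dcn, which encodes decorin, was lower at 10480 against 16660 CPM, neither past 4-fold. Of the 12 genes, 3 were past 4-fold higher and 0 past 4-fold lower, where 2.55% and 2.84% of all tested genes were.

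Markers of the vessel wall were sparse in Stroma8. The endothelial list summed to 128 CPM against 8361 CPM in Bloodvessel, a log2 ratio of -6.03 (-6.47 to -5.63), and 11 of its 12 genes were past 4-fold lower, where 9.74% of all tested genes were. Pecam1, Cdh5, Flt1, Tie1, Egfl7, Cldn5 and Esam were at 0 UMIs in the 62 cells, so that Pecam1 was at least 128-fold and Egfl7 at least 201-fold below Bloodvessel, taken against a floor of 3 UMIs over the cluster. The exception was Tek, the receptor of the angiopoietins, which made up 77.6% of the list in Stroma8. Tek stood at 99 CPM in Stroma8, 92.1 CPM in Bloodvessel and 4.08 CPM in the other Stroma, and it had UMIs in 8 untreated, 8 regressed and 9 progressed cells. It therefore set Stroma8 apart from the other Stroma and not from Bloodvessel.

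The pericyte list summed to 336 CPM in Stroma8 against 791 CPM in the other Stroma, a log2 ratio of -1.24 (-1.50 to -0.99). Cspg4 (a proteoglycan of pericytes), Notch3, Mcam, Cox4i2 and Vtn were past 4-fold lower and Higd1b was at 0, while Rgs5 held 2 UMIs in all. Of 12 smooth muscle genes, 6 were at 0 UMIs, Mylk and Des were past 4-fold lower, and Acta2, the smooth muscle actin, had UMIs in 2 of 62 cells. Of all 15802 genes tested against the other Stroma, 3165 were at 0 UMIs in Stroma8 and 2.84% were past 4-fold lower. The smooth muscle list summed to 214 against 516 CPM in the other Stroma. Bloodvessel itself held 386 CPM of this list and 442 CPM of the pericyte list. Both were below Stroma2 (681 and 1177 CPM), Stroma3 (976 and 1300 CPM) and Stroma6 (823 and 1448 CPM). These sums therefore did not separate Bloodvessel from the fibroblast-rich clusters. Of the pericyte genes, Pdgfrb, the receptor for platelet-derived growth factor, was still present in Stroma8 at 110 CPM, and it is found on many fibroblasts as well.

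Lists of other tissues gave mixed levels. Perineurial genes summed to 62.6 against 456 CPM in the other Stroma, dermal sheath genes to 39.1 against 262 CPM, tenocyte genes to 20.8 against 137 CPM, and muscle stem cell genes to 0 UMIs. The adipocyte list was at 555 CPM against 432 CPM in the other Stroma summed, with log2 ratios of 0.64, 0.31 and 0.10 by tumor. Stroma2 (1192 CPM), Stroma9 (857 CPM) and Stroma6 (802 CPM) lay above Stroma8. The Stroma8 intervals of the regressed (248 to 548 CPM) and progressed tumor (241 to 406 CPM) held the other Stroma's levels (304 and 294 CPM). In the regressed tumor, 1 cell held 59.3% of the list's UMIs. Lpl, lipoprotein lipase, made up 94.4% of the list in Stroma8, and Adipoq, Plin1 and Cidec were at 0. The Schwann list (477 against 505 CPM) was 44.8% Ngfr, a receptor that fibroblasts can also carry, with Mbp (3 UMIs) past 4-fold higher and Cdh19 (2 UMIs) past 4-fold lower. Cell cycle genes summed to 20.8 CPM, with 5 of 8 at 0.

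RNA of leukocytes and keratinocytes was present and followed the tumor. Leukocyte genes summed to 295, 1172 and 263 CPM in the Stroma8 cells of the 3 tumors and to 308, 1020 and 241 CPM in the other Stroma of the same tumors. Keratinocyte genes summed to 246, 1255 and 331 CPM in Stroma8 and to 218, 1128 and 305 CPM in the other Stroma. The defining genes were thin: Ptprc, the common leukocyte antigen, had 1 UMI in each of 3 cells, and Epcam, Cdh1 and Trp63 were at 0. At least 2 leukocyte genes were found in 38 of 62 cells, at least 2 keratinocyte genes in 33, at least 2 endothelial genes in 4 and at least 2 melanocyte genes in 2. The part of this RNA in the differences between tumors was not tested. No doublet caller was run. Of 62 cells, 0 held over 2 times the median UMIs of their tumor's Stroma8 cells. This cut-off follows the cluster's own median, so it cannot show doublets in a cluster that is high as a whole. In the progressed tumor the median was 8563 UMIs in Stroma8 and 4367 UMIs in the other Stroma. Doublets were therefore not tested.

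**Figure D2:**
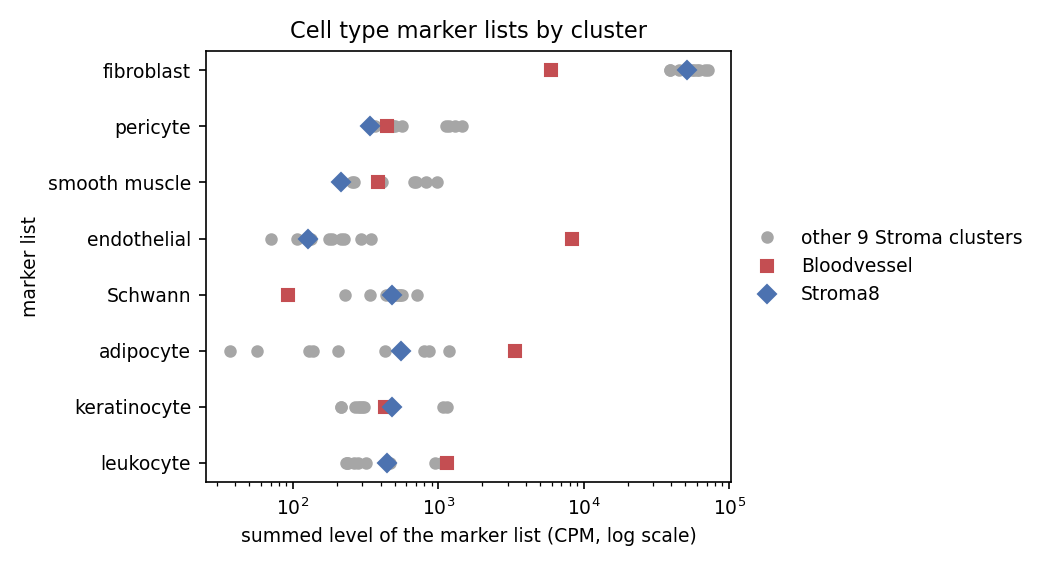
Summed level of 8 cell type marker lists in CPM on a log axis, for Stroma8 (diamond), Bloodvessel (square) and each of the other 9 Stroma clusters (circles). The fibroblast sum of Stroma8 (51550 CPM) lies among the other Stroma clusters, and its endothelial sum (128 CPM) lies far below Bloodvessel (8361 CPM).

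Against the other 9 Stroma clusters summed, 403 of 15802 genes with at least 20 UMIs in both groups together were past 4-fold higher in Stroma8, meaning at least 4 times the level with an interval that excluded equality (2.55%), and 448 were past 4-fold lower (2.84%). The cells were clustered on the same counts, so these numbers describe the cluster and test nothing. Of the 403 higher genes, 365 were higher in each of the 3 tumors and 236 were past 4-fold in each. Of the 448 lower genes, 222 were lower in each tumor and 41 past 4-fold in each, and without the progressed tumor the count of lower genes was 253. Of the higher genes, 382 were above every one of the 9 other Stroma clusters. The median log2 ratio over all tested genes was -0.33, with genes at 0 in Stroma8 placed lowest.

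The 25 leading genes, ranked by their ratio to the other Stroma, included both Pi16 and Dpp4. Pi16, peptidase inhibitor 16 (chr17:29318796-29328903 of GRCm38.p6 in RefSeq), reached 2446, 3348 and 1667 CPM in the 3 tumors. The other Stroma of the same tumors held 45.6, 26.3 and 49.4 CPM, and the pooled log2 ratio was 5.66 (5.54 to 5.78). All 3 values in Stroma8 were thus far above all 3 in the other Stroma. Pi16 had UMIs in 22 of 23, 14 of 18 and 20 of 21 cells, with a median of 9 UMIs per cell (0 to 57).

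Free RNA gives UMIs in cells that do not express a gene, so shares were read beside macrophages and neutrophils. Pi16 was seen in 90.3% of Stroma8 cells, 12.9% of other Stroma cells and 14.7% of macrophages and neutrophils, at medians of 5225, 4084.5 and 2712 UMIs per cell. With each cell thinned to 1000 UMIs, which left 60, 7672 and 1257 cells, the shares were 81.7% (69.6 to 90.5), 3.57% (3.17 to 4.01) and 6.13% (4.86 to 7.60). Over the other Stroma as a whole, Pi16 was no more frequent than in these leukocytes, and in Stroma8 it was.

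Dpp4, dipeptidyl peptidase 4 (chr2:62330073-62412315), is a surface protease. It reached 336, 488 and 352 CPM in the 3 tumors against 8.60, 9.76 and 4.14 CPM in the other Stroma, a log2 ratio of 5.79 (5.48 to 6.09). Pi16 and Dpp4 were found together in 43 of 62 Stroma8 cells (69.4%, 56.4 to 80.4) and in 41 of 7906 other Stroma cells (0.519%, 0.372 to 0.703). At least 1 of the pair was present in 61 of 62 cells. With Pcolce2 added, 39 Stroma8 cells held all 3 genes and 5 other Stroma cells did.

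Pcolce2 encodes an enhancer of procollagen processing (chr9:95637628-95695551). Its level was 690, 1297 and 526 CPM in the 3 tumors against 5.01 CPM in the other Stroma, a log2 ratio of 7.17 (6.90 to 7.45), and it was seen in 88.7% of Stroma8 cells. Among the other clusters the highest level was in Stroma3 (69.6 CPM).

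Smpd3, a neutral sphingomyelinase (chr8:106252548-106337965), and Cxcl13, a chemokine that draws B cells (chr5:95956939-95961068), had the highest ratios of all. Smpd3 reached 345, 1437 and 542 CPM against 1.27 CPM in the other Stroma, a log2 ratio of 8.99 (8.54 to 9.47). Cxcl13 reached 271, 600 and 289 CPM against 1.06 CPM, a log2 ratio of 8.33 (7.81 to 8.88). Outside Stroma the highest Cxcl13 level was that of Macrophages (136 CPM). Smpd3 was seen in 37 cells, Cxcl13 in 32, both in 25 and neither in 18 of the 62, and a cell without a UMI may still express the gene at this depth. After thinning to 1000 UMIs, Smpd3 was seen in 36.7% of Stroma8 cells and 0.636% of macrophages and neutrophils, and Cxcl13 in 26.7% and 2.55%.

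Ly6c1 and Ly6c2, a pair of nearly identical surface antigens whose reads may be hard to tell apart, were also among the leading genes. Ly6c1 reached 1330, 2343 and 3470 CPM against 49.4 CPM in the other Stroma and 937 CPM in Bloodvessel. Gpx3, a secreted glutathione peroxidase, reached 8503, 4031 and 8160 CPM against 274 CPM, and Anxa3, annexin A3, reached 542, 823 and 1073 CPM against 20.5 CPM. Ackr3, a scavenging receptor for chemokines, stood at 404 against 5.28 CPM, and Ackr1, the chemokine receptor of venules, at 65.2 against 2.36 CPM with a higher level in Bloodvessel (388 CPM).

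The rest of the 25 leading genes had log2 ratios between 4.78 and 6.64. They were Galnt16 and Aox3 (enzymes), Sema3c (a guidance signal), Cd55 (an inhibitor of complement), Wnt2 (a Wnt ligand), Npr1 (a natriuretic peptide receptor), Ccn5 (a matricellular protein), Ifi27l2a (an interferon-induced protein), Opcml (an adhesion protein), Rorb (a nuclear receptor), Adgrd1 (an adhesion receptor), Rras2 (a small GTPase), Cmah (a sialic acid enzyme) and 1700019D03Rik. All 25 were at least 4-fold above each of the other 9 Stroma clusters. For 22 of the 25, Stroma8 had the highest level of all 25 clusters, the exceptions being Npr1 and Ackr1 in Bloodvessel and Ly6c2 in Monocytes1.

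**Figure D3:**
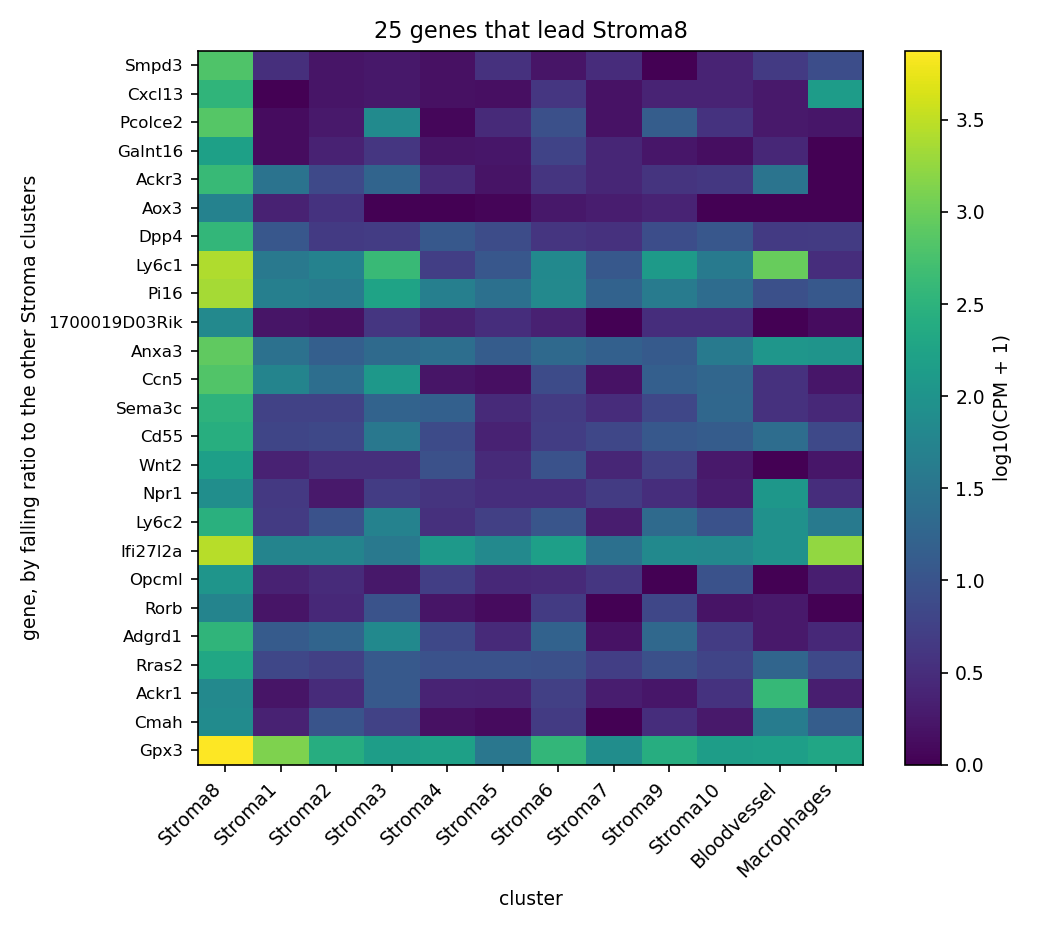
Level of the 25 leading genes as log10(CPM + 1) in Stroma8, the other 9 Stroma clusters, Bloodvessel and Macrophages, ordered by their ratio to the other Stroma. The Stroma8 column is the brightest for most genes, with Ly6c1 (937 CPM) and Ackr1 (388 CPM) also bright in Bloodvessel and Ifi27l2a (1736 CPM) in Macrophages.

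Stroma3 shared the most with this pattern. It had the next highest level among the Stroma clusters for 12 of the 25 leading genes, such as Pi16 (174 CPM), Ly6c1 (424 CPM) and Adgrd1 (68.1 CPM). Over the 403 higher genes it was next for 136, or 33.75%, beside 14.68% of all tested genes for which it was the highest of the other 9. Pi16 and Dpp4 together were still rare in Stroma3, in 1.36% of its 220 cells. Over the whole profile, Pearson's r of log2(CPM + 10) across 14758 genes was 0.905 with Stroma6, 0.901 with Stroma3, 0.900 with Stroma2 and 0.772 with Bloodvessel, and the 3 lowest of the Stroma clusters were Stroma5 (0.859), Stroma10 (0.854) and Stroma7 (0.847). These are descriptions across genes, which are not independent, and the clusters share libraries. The first 3 were too close to rank, since Stroma3 came first at 0.911 with a pseudocount of 100.

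**Figure D4:**
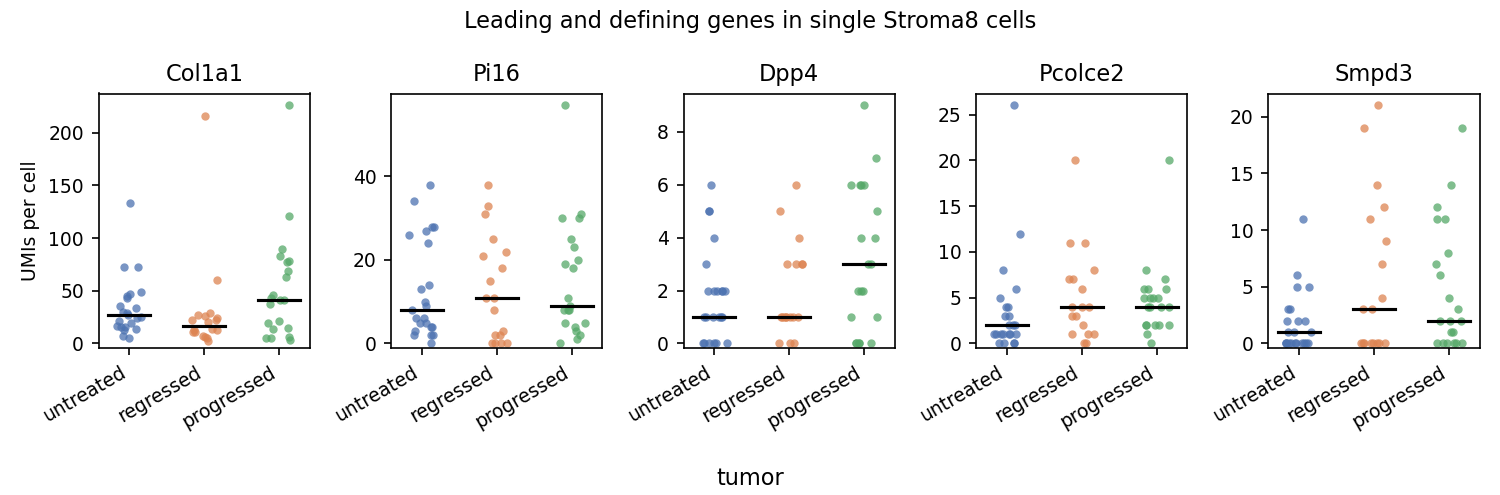
UMIs per cell of Col1a1, Pi16, Dpp4, Pcolce2 and Smpd3 in the 62 Stroma8 cells, by tumor, with 1 point per cell and a bar at the median. Col1a1 was above 0 in every cell, Pi16 in 56, Pcolce2 in 55, Dpp4 in 48 and Smpd3 in 37, and each gene was found in all 3 tumors.

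A list of 20 genes known from fascial and adventitial fibroblasts was written after the leading genes had been seen, so its level is no independent evidence. It summed to 20000 CPM in Stroma8 against 2233 CPM in the other Stroma, a log2 ratio of 3.16 (3.13 to 3.20), with 15 of 19 tested genes past 4-fold higher and 0 lower, beside 2.55% and 2.84% of all tested genes. By tumor the ratio was 2.71, 3.40 and 3.32. Beyond the genes above, it included Clec3b (tetranectin, seen in all 62 cells, 3276 against 298 CPM), Ly6a (Sca-1, of the same antigen family as Ly6c1, 3982 against 244 CPM), Cd248 (endosialin, 779 against 171 CPM) and Tnxb (tenascin X, 730 against 146 CPM). Cd34, a surface sialomucin, was at 795 against 305 CPM and did not reach 4-fold.

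Matrix genes differed by kind. The genes that crosslink collagen and elastin summed to 2226 against 651 CPM, a log2 ratio of 1.77 (1.67 to 1.87), with values of 1.77, 1.74 and 1.85 in the 3 tumors. Of the 9 genes, 3 lysyl oxidases were past 4-fold higher, where 2.55% of all tested genes were. They were Lox at 516 against 48.7 CPM, Loxl1 at 1050 against 237 CPM and Loxl4 with 6 UMIs. The elastic fibre list, also written after the leading genes had been seen, had a log2 ratio of 1.28 (1.24 to 1.33) with 6 of 18 genes past 4-fold higher and 1 lower, beside the same 2.55% and 2.84%. Eln, elastin, reached 665, 1074 and 1025 CPM against 65.2 CPM in the other Stroma, and Emilin2 reached 336 against 73.8 CPM. Fbn2, the fibrillin of developing tissue, was lower at 52.1 against 311 CPM. Mfap4 was higher, but its 165 UMIs came from 12 cells, with 73.3% of them in 3 cells.

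Fibrillar collagens had a log2 ratio of 0.16 (0.13 to 0.18) to the other Stroma. By tumor it was 0.05, 0.65 and 0.12, and in the regressed tumor Stroma8 held 27510 CPM against 17520 CPM in the other Stroma. There, 1 of 18 Stroma8 cells held 27.7% of the list's UMIs (546 of 1972), and its part in the ratio was not tested. Of 10 tested genes, Col11a1 and Col27a1 were past 4-fold, both lower and at 0 UMIs. Small leucine-rich proteoglycans were lower at -0.71 (-0.75 to -0.67). Ogn, which encodes osteoglycin, went the other way and reached 1601, 1813 and 1467 CPM against 109 CPM, while Fmod, fibromodulin, was lower. Basement membrane genes were at -0.43 (-0.48 to -0.38), with Lamc3 and Col18a1 past 4-fold lower, and other collagens at -0.38, with Col7a1, Col8a1, Col23a1, Col26a1 and Col28a1 lower. Stroma4, Stroma7 and Stroma10 lay below Stroma8 for both lists, and Stroma1 for other collagens as well. The remaining Stroma clusters lay above it. Metalloproteases and their inhibitors were at 0.53 (0.48 to 0.59) with 0 of 19 genes past 4-fold. Of all tested genes, 2.55% were past 4-fold higher and 2.84% lower.

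Signalling genes were split as well. Of 22 tested Wnt ligands and antagonists, 5 were past 4-fold higher and 5 lower, beside 2.55% and 2.84% of all tested genes. Higher were Wnt2, the secreted Wnt antagonists Sfrp2 (412 against 22.6 CPM) and Sfrp4 (615 against 65 CPM), Dkk2 and Rspo1. Lower were Wnt6, Sfrp5, Dkk3, Frzb (0 UMIs) and Nkd2. Of the TGF-beta and BMP genes, the BMP and activin antagonists Chrdl1 (208 against 20.4 CPM) and Fst (193 against 22.2 CPM) were higher. Bmp3 was higher on 5 UMIs, and the ligands Tgfb1 and Bmp7 were lower. Pdgfc was higher in the PDGF axis. Of the Notch genes, Notch1, Notch3, Jag1 and Heyl were lower and 0 were higher, beside the same 2.84% and 2.55% of all tested genes.

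The 9 MAPK target genes summed to 670 against 1300 CPM, a log2 ratio of -0.96 (-1.14 to -0.78). By tumor it was -0.26 (-0.52 to -0.01), -0.83 (-1.45 to -0.28) and -1.53 (-1.81 to -1.25), so that Stroma8 was closest to the other Stroma in the untreated and furthest in the progressed tumor. Dusp6, a phosphatase that ERK induces, was at 18.2 against 159 CPM, and Etv1 and Etv4, transcription factors downstream of ERK, held 3 and 1 UMIs. Fosl1 was higher, with all its 19 UMIs in 7 progressed cells. Immediate early genes were at -0.46 (-0.51 to -0.42), with Klf2 and Klf4 higher and Egr3 lower. Nrtn was higher and Bdnf, Ntrk3 and Gfra2 were lower among the neurotrophic genes.

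Among chemokines, Cxcl13 was joined by Ccl7 (829 against 144 CPM), Ccl8 (274 against 34.2 CPM) and Cxcl10 (133 against 27.8 CPM), which attract monocytes and T cells. Ccl8 held the same counts as another feature of the table, so its reads are uncertain. Cxcl14 was lower at 326 against 2033 CPM, and Cxcl5 held 1 UMI. Ccl11, the eotaxin, was at 732 against 1462 CPM, short of 4-fold. The list as a whole was at -0.44 (-0.51 to -0.37). By cluster, Stroma8 (4357 CPM) lay above Stroma3 (3961 CPM), Stroma4, Stroma9 and Stroma10 (1998 CPM). It lay below Stroma1 (13180 CPM), Stroma2, Stroma5, Stroma6 and Stroma7. Of complement genes, a list written after the leading genes had been seen, C3 was at 1790 against 102 CPM and C4b, which shares its counts with another feature, at 425 against 39.3 CPM, with Cd55, Clu and C7 also higher, the last by 14 UMIs in 4 regressed cells. Apod, the apolipoprotein D of the lipid list, was lower at 2546 against 16360 CPM in the other Stroma summed. It carried most of that list's log2 ratio of -2.27. The summed Apod level leaned on Stroma7 (81060 CPM) and Stroma5. Stroma6 (3576 CPM), Stroma3 (3799 CPM) and Stroma2 (3950 CPM) lay much closer to Stroma8, which was still the lowest of the Stroma clusters. Of the insulin-like growth factor axis, a list written after the leading genes had been seen, Igfbp5 was higher at 1449 against 212 CPM and Igfbp7 lower at 826 against 3580 CPM.

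The 10 genes furthest below the other Stroma were nearly silent in Stroma8. Foxd2os held 2 UMIs against 230 CPM in the other Stroma, a log2 ratio of -5.46 (-8.51 to -3.61), and Egflam, Etv4, Gucy1a1 and Amn held 1 UMI each. Smim41, the homeobox gene Meox1, the cell cycle inhibitor Cdkn2b, Kank4 and the transcription factor Klf5 held 2 to 5 UMIs. Their wide intervals reflect these few UMIs.

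Against Bloodvessel, 504 of 8782 genes were past 4-fold higher in Stroma8 (5.74%) and 855 were lower (9.74%), with a median log2 ratio of -0.37 over all tested genes. The highest were Nova1 (an RNA-binding protein, 771 against 0.869 CPM), Pcolce2, Osr2 (a transcription factor of connective tissue), Cxcl13, Adgrd1, Lox, Pi16, Dpt, Ccn5 and Sfrp2. The lowest were the adhesion receptors Sele and Selp, the water channel Aqp1, Emcn (endomucin) and Egfl7, which are genes of endothelium. Scaling by trimmed means (TMM) raised every log2 ratio to Bloodvessel by 0.170. 

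Between the tumors, most Stroma8 genes that could be tested stayed within 4-fold. Progressed against untreated, 29 of 2567 genes were past 4-fold higher (1.13%) and 14 lower (0.545%). Regressed against untreated, 39 of 1639 genes were higher (2.38%) and 50 lower (3.05%), or 30 higher and 67 lower under TMM, which shifted each of these ratios by -0.246. Progressed against regressed, 80 of 2264 genes were higher (3.53%) and 24 lower (1.06%), or 122 higher and 19 lower under TMM, with a shift of 0.322. The 3 comparisons share tumors and are not independent. Median log2 ratios over the tested genes were 0.05, -0.08 and 0.09.

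The summed level of interferon-stimulated genes was higher in the progressed cells than in those of either other tumor, though few members were past 4-fold by themselves. These genes are switched on by interferons and act against viruses and in antigen presentation. Their 15 members summed to 6960 CPM (6500 to 7445), 8090 CPM (7445 to 8776) and 17200 CPM (16610 to 17800), where the other Stroma held 5792, 5497 and 6544 CPM. Progressed against untreated, the log2 ratio was 1.31 (1.20 to 1.42) in Stroma8 and 0.18 (0.16 to 0.19) in the other Stroma. Regressed against untreated it was 0.22 (0.06 to 0.37), which turned to -0.029 under TMM and to -0.79 without B2m, Ifitm3, H2-K1 and H2-D1. The progressed tumor was the highest under each of these settings, and the order of the other two was not settled.

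In single cells the sum ran from 3247 to 13710 CPM with a median of 6266 in 23 untreated cells, from 4100 to 11860 with a median of 7297 in 18 regressed cells, and from 4996 to 64980 with a median of 13600 in 21 progressed cells. Of the 21 progressed cells, 20 were above the untreated median and 10 were above every untreated and regressed cell. The highest progressed cell held 25.8% of the list's UMIs in that tumor. Without the cell with most UMIs of the list in each tumor, the log2 ratio of progressed to untreated was 1.04. Progressed cells also held more UMIs (a median of 8563 against 4911), and with all cells thinned to 1000 UMIs the ratio was 1.26.

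Single members followed at different strength. Bst2, or tetherin, reached 312, 223 and 989 CPM, and all 21 progressed cells held it. Irf7, a transcription factor of the interferon response, reached 172, 55.8 and 578 CPM, with UMIs in 8 of 23, 3 of 18 and 18 of 21 cells. Isg15, a ubiquitin-like protein, reached 65.7, 27.9 and 331 CPM and was the only 1 of 12 tested members past 4-fold higher in progressed against untreated (1.13% of all tested genes), with a log2 ratio of 2.33 (1.27 to 3.61). B2m, the light chain of MHC class I, reached 1863, 2343 and 5915 CPM and H2-K1 reached 427, 502 and 1225 CPM. Irf1 went the other way at 172, 27.9 and 36.8 CPM. The progressed tumor was thus the highest for Bst2, Irf7, Isg15, B2m and H2-K1, and not for Irf1, Ifit3 (131, 13.9 and 116 CPM) or Rsad2 (8 UMIs in 3 cells).

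Against the other Stroma the same list had a log2 ratio of 1.01 (0.97 to 1.05), with 6 of 15 genes past 4-fold higher and 0 lower (2.55% of all tested genes were higher) and a median of 1.84. The 6 were Isg15, Ifit1, Irf7, Bst2, Rsad2 and Usp18. By tumor the ratio was 0.26, 0.56 and 1.39, and without the progressed tumor it was 0.37. Irf7 had the largest ratio, 352 against 16.7 CPM.

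**Figure D5:**
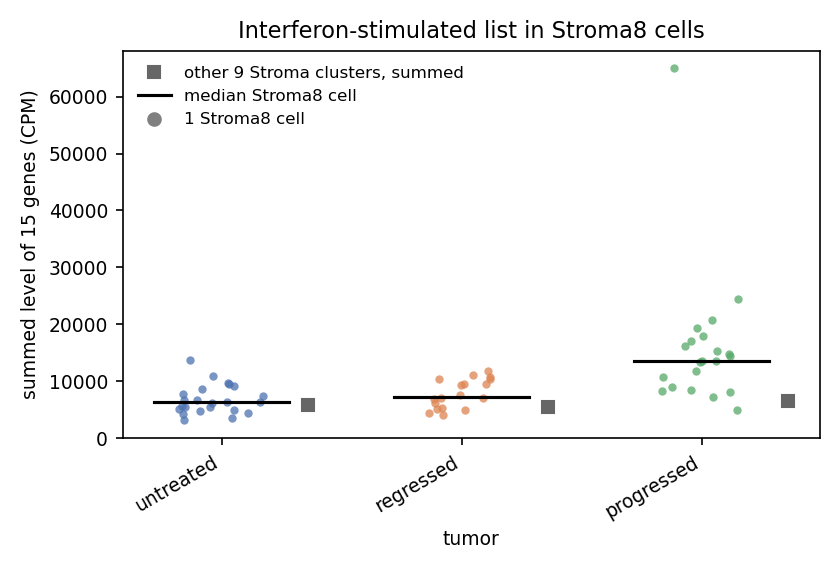
Summed level of the 15 interferon-stimulated genes in CPM for each Stroma8 cell, by tumor, with a bar at the median cell and a square for the other 9 Stroma clusters summed. The median cell was at 13600 CPM in the progressed tumor and at 6266 and 7297 CPM in the untreated and regressed ones, and 1 progressed cell lay at 64980 CPM.

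Interferon-activated transcription factors bind a repeated element, so promoters of the list were searched for the letters GAAANNGAAA on both strands, a choice made after the values had been seen. RefSeq promoters (250 bases before to 50 after the start site, GRCm38.p6) were found for 12 of the 15 genes. The letters were found in 7 of these 12 genes (58.3%) and in 1079 of 27025 genes with an entry (3.99%). The list was put together from genes known to respond to interferon. Its higher share therefore describes the choice of genes, and not Stroma8 or a tumor. They were in Isg15, Ifit1, Ifit3, Bst2, Ifitm3, Rsad2 and B2m, and not in the windows of Irf7, Irf1, Oasl2, H2-K1 and H2-D1. The match nearest the start site is shown with 10 bases on each side for the 4 genes that were also past 4-fold above the other Stroma, with the match in capitals. A match is a description of these letters and not a measured site.
Isg15: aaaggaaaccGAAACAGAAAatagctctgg
Ifit1: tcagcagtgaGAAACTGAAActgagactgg
Bst2: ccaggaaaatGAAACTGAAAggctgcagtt
Rsad2: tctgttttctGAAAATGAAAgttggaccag
The Isg15 stretch is chr4:156200865-156200894 on the minus strand and the Ifit1 stretch is chr19:34640794-34640823 on the minus strand. The Bst2 stretch is chr8:71537577-71537606 on the minus strand and the Rsad2 stretch is chr12:26456553-26456582 on the plus strand. Their centres lay 61, 80, 119 and 115 bases before the start site.

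Further genes separated the progressed from the untreated cells. Tnfrsf12a, the receptor of the cytokine TWEAK, reached 41, 83.7 and 468 CPM, a progressed to untreated log2 ratio of 3.51 (2.23 to 5.17), where the other Stroma went from 85.6 to 282 CPM. Noct, Ecrg4, Uqcrc1 and Rabgap1l had higher ratios on 1 untreated UMI each, with log2 ratios of 3.68 to 3.75 and intervals that reached down to 1.03. On the lower side, S100a8 and S100a9, alarmins of neutrophils, were at 312 CPM each in the untreated tumor and at 0 UMIs in the progressed one. The other Stroma held 340 and 2.64 CPM of S100a8, and the tumors held 391 and 4 cells called Neutrophils, so RNA of another cell type moved with this result, and its part was not tested. Cxcl2 was likewise at 172 CPM and at 0, and Mmp11, a metalloprotease of stroma, at 148 and 15.8 CPM. Ctla2a, a protease inhibitor, was at 1190 and 36.8 CPM, but 87.5% of its 248 UMIs were in 3 cells.

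Regressed against untreated, Igfbp3, a binding protein of insulin-like growth factor, reached 1004 against 57.4 CPM, in 9 of 18 against 4 of 23 cells, and the other Stroma did not differ in this way (110 and 116 CPM). Penk, which encodes the precursor of enkephalins, reached 349 against 8.21 CPM (1 untreated UMI), a log2 ratio of 5.41 (2.80 to 10.77), with 288 and 256 CPM in the other Stroma. Krt14 and Krt15, keratins of the epidermis, and Defb6, a defensin of epithelia, were higher too, beside the higher keratinocyte RNA of that tumor, whose part was not tested. Smpd3 was higher at 1437 against 345 CPM.

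The summed levels of chemokines and of crosslinking genes were lower in the regressed tumor than in the untreated one. The chemokine list was at 5072, 2176 and 4722 CPM in the 3 tumors, a log2 ratio of regressed to untreated of -1.22 (-1.48 to -0.97), with Ccl2, Ccl7, Cxcl1 and Cxcl10 past 4-fold lower of 10 tested, where 3.05% of all tested genes were. In the other Stroma the list ratio was -1.76 (-1.79 to -1.74). Ccl7 stood at 1059, 112 and 952 CPM. Ccl2 was at 205, 41.8 and 968 CPM, but 157 of its 212 UMIs were in 1 progressed cell. The cell with most chemokine UMIs held 40.9% of those of the progressed tumor. Crosslinking genes were at 2717, 1255 and 2277 CPM, a log2 ratio of regressed to untreated of -1.11 (-1.47 to -0.77), with only Tgm2, a transglutaminase, past 4-fold of 4 tested, and -1.08 in the other Stroma. Thbs1 (thrombospondin 1) and Tfpi (an inhibitor of coagulation) were also among the lowest genes, Thbs1 at 681 against 41.8 CPM.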

How the data were processed

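Single cells of 3 mouse melanomas were measured, 1 per group, with groups taken from the sample titles. The authors deposited UMI counts per gene and cell and, in a cell table whose labels are of another kind (unit other), the cluster names. Per the study's methods and the submitters' processing notes, droplet libraries of transcript ends were aligned to GRCm38 with GSNAP, uniquely mapped sense reads in exons were counted by UMI, cells under 300 UMIs were left out, and cells were clustered with Seurat 2.2.0. The smallest cell held 326 UMIs here. Sums of the deposited counts exceeded the deposited totals per cell by 5.02%, while the genes detected matched in all 12670 cells. Of 36530 features, 5402, with 3.71% of UMIs, had no symbol and stayed in the totals. Libraries shared 0 cell IDs, but the IDs are running numbers, so droplet barcodes could not be compared.

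Counts of each cluster and tumor were summed and given as CPM, with exact Poisson intervals, exact conditional binomial intervals for log2 ratios and Clopper-Pearson intervals for shares (95%). With 1 tumor per group, no test was possible: edgeR's fits across samples were not used, and a gene was called past 4-fold at 20 or more UMIs in both groups together with an interval that excluded equality. For genes at 0, a floor of 3 UMIs per pooled group stood in. The same interval code was checked on simulated counts. Genes were named by rank: the 25 highest and 10 lowest against the other Stroma, 10 and 5 against Bloodvessel, and 5 and 5 for progressed and regressed against untreated, with a UMI in at least 25% of cells (between tumors, in at least 3 cells), beside list members past 4-fold. The cluster, its gene lists (38 written first, 4 later) and the rules were chosen with earlier results of these data known. Genes that lay in few cells were picked out after values were seen. Alternatives were TMM scaling (edgeR 4.0.16), equal cell weights, thinning to 1000 UMIs, other minimum counts and leaving out clusters, cells or tumors. Python 3.11.15, numpy 2.4.6, scipy 1.17.1, pandas 2.3.3 and R 4.3.3 were used. Some named items are not reported here.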

Additional observations from a re-analysis of the deposited data

Results flagged for a closer look

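For 3 lists, Stroma8 lay above the other Stroma in 1 tumor and below it in the other two, with counting intervals on opposite sides of 0. The difference between the tumors was not tested, since each had 1 animal. The fibroblast list had a log2 ratio of -0.11 (-0.14 to -0.07) in the untreated, 0.27 (0.23 to 0.32) in the regressed and -0.16 (-0.19 to -0.13) in the progressed tumor. Basement membrane genes had ratios of -0.54 (-0.62 to -0.45), 0.13 (0.02 to 0.23) and -0.52 (-0.59 to -0.45) in the same order. In both lists the positive value of the regressed tumor leaned on few cells. Of its 18 Stroma8 cells, the top cell held 21.4% of the fibroblast UMIs (858 of 4003). The top cell of the basement membrane list held 22.2% (161 of 725). The part of these cells in the change of sign was not tested. The insulin-like growth factor list had ratios of -0.56 (-0.66 to -0.46), -0.26 (-0.36 to -0.16) and 0.47 (0.41 to 0.54). Igfbp6, a binding protein for insulin-like growth factor II, made up 41.8% of that list in Stroma8 as a whole, with 1387, 3627 and 5526 CPM in the same order.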

How the results depend on the processing

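No paired analysis was possible because the groups share fewer than 2 replicate numbers, with 1 tumor each. Depth limited what could be compared: 383720 UMIs in 62 cells left 1639 to 2567 testable genes between tumors. As a share of Stroma cells instead of all cells, Stroma8 was at 0.875% of the untreated and 0.939% of the regressed tumor. The fibroblast log2 ratio to the other Stroma was -0.038 under TMM, 0.041 with equal cells, 0.043 after thinning, -0.10 with the 9 clusters weighted equally, -0.12 without the 5% of cells with most UMIs, -0.13 without Stroma10, and -0.14 to 0.011 leaving out 1 tumor. Leaving out 1 tumor, 253 to 410 genes were lower than in the other Stroma. The endothelial ratio to Bloodvessel was -5.47 after thinning.

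Counts moved with the minimum UMIs (5, then 50). Against Bloodvessel, 814 and 289 genes were higher, and 539 were lower at 50. Progressed against untreated, 72 and 9 were higher and 85 and 3 lower. Regressed against untreated, 144 and 12 were higher and 80 and 13 lower. Progressed against regressed, 29 were higher at 50 and 205 and 7 lower, and TMM gave 122 higher at the usual 20. The counts at 5 and 50 differ by construction, since fewer or more genes were tested. The interferon ratio of progressed to untreated was 1.04 without the top cell of the list and 1.10 without B2m, Ifitm3, H2-K1 and H2-D1. For regressed to untreated it was -0.029 under TMM and -0.79 without those 4 genes, and for progressed to regressed 1.41 under TMM, 0.81 without the top cell and 1.89 without the 4 genes. The 2 last changes of the list were chosen after the data were seen, and the cause was not tested. The correlation with Stroma6 was 0.886 with a pseudocount of 1, 0.902 with 100, 0.888 with a higher minimum level and 0.885 as Spearman's rho.

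Between tumors, some list ratios turned. Under TMM these were fibrillar collagens progressed to untreated (0.0054), metalloproteases regressed to untreated (-0.023), and basement membrane (0.074) and fascial genes (0.12) progressed to regressed. After thinning, progressed to regressed, they were fibrillar collagens (-0.080, and -0.017 with equal cells), contractile genes (-0.037), Notch genes (0.067, from -1.06) and fascial genes (0.14). Of the list ratios to the other Stroma, 270 of 358 alternative values stayed within the counting interval and 0 reversed, the fibroblast list aside.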
